A study of Mus musculus with 4 samples.

Results

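The genes described here encode the mitochondrial respiratory chain and ATP synthase, measured in brain myeloid cells of APP/PS1 mice. Members were all features whose symbols start with Ndufa, Ndufb, Ndufc, Ndufs, Ndufv, Uqcr, Cox4, Cox5, Cox6, Cox7, Cox8 or Atp5, with Sdha, Sdhb, Sdhc, Sdhd and the 13 protein genes of mitochondrial DNA. Each needed at least 50 unique molecular identifiers (UMIs, 1 per captured mRNA molecule) over all cells. In all, 103 of 32372 features met the rule. They comprised 81 nuclear subunit genes (36 of complex I, 4 of complex II, 8 of complex III, 16 of complex IV and 17 of complex V), the 13 mitochondrial genes (7, 1, 3 and 2 of complexes I, III, IV and V), 8 assembly factors with symbols starting with Ndufaf, and Ndufb1-ps, a pseudogene by its name. Ndufa4, once listed with complex I, was counted with complex IV. Just inside the UMI minimum were Cox8b with 63 UMIs, Cox7a1 with 93 and Cox6b2 with 330, and just outside was Cox4i2 with 21, while Cox7b2, Cox8c and Ndufa4l2 were at 0.

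Complex I oxidises NADH and complex II oxidises succinate, and both pass the electrons to ubiquinone. Complex III hands them on to cytochrome c and complex IV, cytochrome c oxidase, to oxygen. Complexes I, III and IV pump protons, and complex V, the ATP synthase, uses the gradient to make ATP. Complex II is built wholly from nuclear genes, whereas the other complexes join nuclear subunits to subunits translated inside the organelle from transcripts of mitochondrial DNA. Microglia, the resident macrophages of the brain, are known to change their energy metabolism with activation.

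Single-cell RNA was measured in 4 libraries, each from CD11b+/CD45+ cells of a left brain hemisphere that were enriched on Percoll and sorted. Every mouse was labelled female, 4 months old and APP/PS1, an amyloid model of Alzheimer's disease, so amyloid transgenes were shared by both groups. The labels of 2 libraries give the genotype APP/PS1:miR-155 cKO, a deletion of the microRNA miR-155 in microglia, and 2 were Control libraries of the same model. The labels name neither the Cre driver nor the deleted part of the miR-155 locus, and they call the libraries biological replicates.

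Deposited totals lay between 33130800 and 47574406 UMIs per library, and 13539 cells were kept, of which 12574 lay in clusters named microglia-like (2603 to 3871 per library, median depth 6250 to 7340.5 UMIs). All 16 microglia markers were detected, at a summed 46639 to 50213 CPM (UMIs per 1000000 UMIs of the library). Libraries shared 1 to 4 cell barcodes per pair. Control replicate 1 stood apart: Xist, the RNA of the inactive X chromosome, was at 0.43 CPM there and at 1709.8 to 1865.7 in the other libraries, and it held 1520 of the 1993 cells of 1 microglia-like cluster. Genotype results are therefore also given without it. In the deposited names cKO replicate 2 has a run code that the other 3 libraries do not share. Mir155hg, the miR-155 host gene, had 1 UMI in each cKO library and 7 and 11 in Control replicates 1 and 2, which checks nothing because the deleted part is not given.

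Of the 81 nuclear subunit genes, 67 were found in RefSeq's promoter sequences (GRCm38.p6, 250 bases before to 50 after the annotated start). They were searched on both strands for exact matches to the NRF1 palindrome (the first run of capitals in the Cox6a1 promoter), CCGGAAG (ETS factors such as GABP), AAGATGGC (YY1) and AAGGTCA (oestrogen-related receptors), motifs of factors known to bind respiratory chain promoters. The NRF1 palindrome was found in 5 of 67 promoters (7.46%, against 1.07% of 27025 promoters of all genes), ETS letters in 17 (25.4% against 9.93%), YY1 letters in 9 (13.4% against 3.19%) and the receptor letters in 8 (11.9% against 5.38%). At least 1 of the first 3 motifs occurred in 28 promoters, which is 41.8% of them against 13.4% of all. These matches are descriptions of the sequence, not of binding. The promoters of 1 member each of complexes I, III, IV and V that the results below turn on are shown 5′ to 3′, with matches in capitals. Ndufa1 lies on the minus strand (chrX:37191189-37191488) with no match, Uqcrh on the minus strand (chr4:116075021-116075320) with an ETS match that starts at -10, Cox6a1 on the minus strand (chr5:115348909-115349208) with NRF1 at -162 and ETS at -16, and Atp5e on the minus strand (chr2:174464052-174464351) with ETS at -102 and the receptor motif at 24. CTTCCGG and TGACCTT are the ETS and receptor letters read from the other strand.
Ndufa1: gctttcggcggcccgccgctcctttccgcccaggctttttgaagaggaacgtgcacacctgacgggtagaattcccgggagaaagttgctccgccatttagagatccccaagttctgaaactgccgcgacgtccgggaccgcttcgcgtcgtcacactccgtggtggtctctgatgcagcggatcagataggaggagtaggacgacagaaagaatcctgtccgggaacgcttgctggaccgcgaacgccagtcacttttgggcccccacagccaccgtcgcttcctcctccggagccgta
Uqcrh: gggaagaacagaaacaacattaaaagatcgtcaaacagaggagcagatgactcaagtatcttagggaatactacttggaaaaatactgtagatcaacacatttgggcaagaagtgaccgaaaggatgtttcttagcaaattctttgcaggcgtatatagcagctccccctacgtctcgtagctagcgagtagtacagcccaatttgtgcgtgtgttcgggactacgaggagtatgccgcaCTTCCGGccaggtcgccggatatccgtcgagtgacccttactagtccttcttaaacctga
Cox6a1: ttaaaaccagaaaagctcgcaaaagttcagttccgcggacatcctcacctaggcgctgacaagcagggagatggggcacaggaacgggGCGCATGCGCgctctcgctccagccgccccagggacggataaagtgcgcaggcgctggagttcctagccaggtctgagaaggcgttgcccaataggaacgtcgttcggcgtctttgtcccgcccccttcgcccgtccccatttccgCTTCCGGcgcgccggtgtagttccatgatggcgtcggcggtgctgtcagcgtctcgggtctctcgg
Atp5e: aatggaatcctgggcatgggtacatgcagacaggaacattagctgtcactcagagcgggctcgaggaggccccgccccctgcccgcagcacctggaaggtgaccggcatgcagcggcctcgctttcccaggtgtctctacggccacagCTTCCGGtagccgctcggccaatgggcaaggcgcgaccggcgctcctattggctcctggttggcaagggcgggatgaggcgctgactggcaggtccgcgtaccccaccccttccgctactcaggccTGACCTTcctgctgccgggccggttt

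Messages of the 13 mitochondrial genes made up about 2 per cent of the UMIs of microglia-like cells and those of the 81 nuclear subunit genes about 1 per cent. The mitochondrial share was 2.32% in cKO replicate 1, 2.06% in cKO replicate 2, 2.35% in Control replicate 1 and 2.93% in Control replicate 2. In the same order the nuclear share was 1.16%, 1.11%, 1.21% and 1.23%. Control replicate 2 was the highest library for both, and most clearly for the mitochondrial messages, where its ratio of mitochondrial to nuclear UMIs was 2.38 against 2.00, 1.87 and 1.94 in cKO replicate 1, cKO replicate 2 and Control replicate 1. Free RNA, read from barcodes of at most 100 UMIs, held 1.43% to 1.91% mitochondrial and 0.606% to 0.988% nuclear UMIs. Monocyte-like cells (12 to 34 per library) held 1.91% to 2.42% mitochondrial and 1.26% to 1.48% nuclear UMIs, and the unnamed clusters, mostly of low depth, held 5.57% to 6.17% mitochondrial UMIs.

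**Figure D1:**
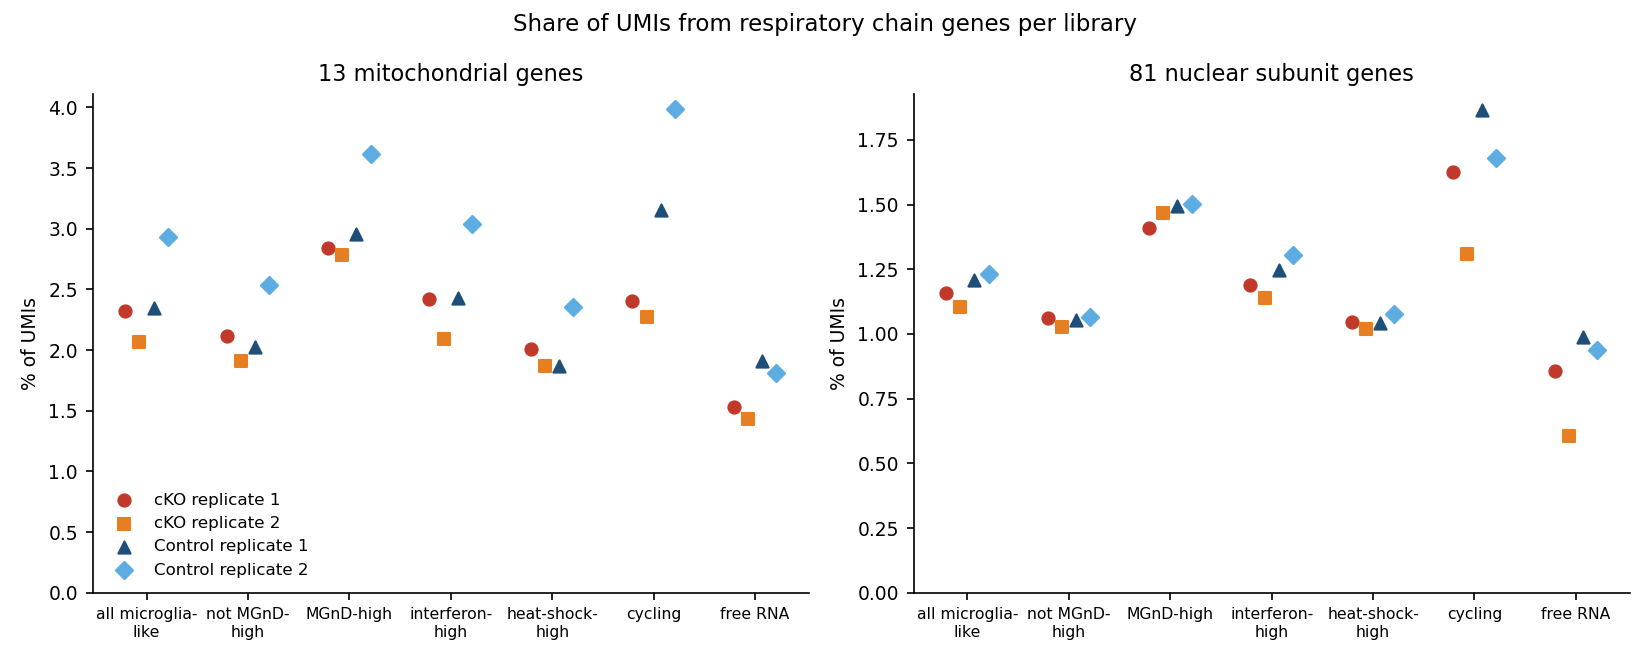
Percent of UMIs from the 13 mitochondrial genes (left) and from the 81 nuclear subunit genes (right) in each library, for all microglia-like cells, for cells outside and inside the MGnD-high state, for interferon-high, heat-shock-high and cycling cells, and for free RNA. Each point is 1 library. In every library the MGnD-high point lies above the point for cells outside that state, from 2.12% to 2.84% mitochondrial UMIs in cKO replicate 1, for example.

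MGnD-high microglia carried more respiratory chain message than the other microglia of the same library, in nearly every subunit of both genomes. MGnD is the neurodegenerative, or disease-associated, microglial phenotype. A cell counted as MGnD-high when UMIs of at least 3 of 12 genes that are not members (among them Clec7a, Itgax, Lpl and Cst7) were found after thinning the cell to 2000 UMIs. Such cells made up 21.18% and 12.96% of the cells of cKO replicates 1 and 2, against 25.81% and 26.43% for Control replicates 1 and 2. Raw UMIs were summed inside and outside the state in each library and compared by edgeR's quasi-likelihood test with the library as a block. Levels of single genes from here on are CPM scaled with TMM factors (trimmed mean scaling), except where unscaled is written. Of the nuclear subunit genes, 79 could be tested, and 78 rose at a Benjamini-Hochberg adjusted p under 0.05, as did 13 of 13 mitochondrial genes. None fell. Over all 12360 genes tested, 55.2% passed the threshold, 27.9% upward and 27.2% downward. The median log2 fold change was 0.68 over nuclear members and 0.78 over mitochondrial members, against -0.03 over all genes.

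These cells were also deeper, with medians of 9921.5 to 12163 UMIs against 5773 to 7172 outside the state. With every cell thinned to 2000 UMIs, 71 of 78 nuclear and 13 of 13 mitochondrial genes rose, with medians of 0.72 and 0.81. Over all 10226 genes tested after thinning, 39.8% passed, 21.5% upward. The scaling moved the values more. With total UMIs as library size in place of TMM factors, the median over all genes moved from -0.03 to -0.31, and calls over all genes went from 3449 higher and 3368 lower to 1824 and 7280. On that scale 60 nuclear genes rose and 4 fell (Ndufs1, Sdha, Uqcrc1 and Uqcrc2), 13 of 13 mitochondrial genes rose, and the medians were 0.40 and 0.50. Of other cells that the sort could hold, border-associated macrophage markers summed to 50.6 to 73.4 CPM inside and 132 to 170 outside the state, with 5 of 10 at 0 inside. Monocyte markers summed to 11.4 to 27.6 and 14.3 to 17.6 CPM, with 2 to 4 of 10 at 0 inside. In such sums, fewer cells of a kind and less RNA per cell cannot be told apart.

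**Figure D2:**
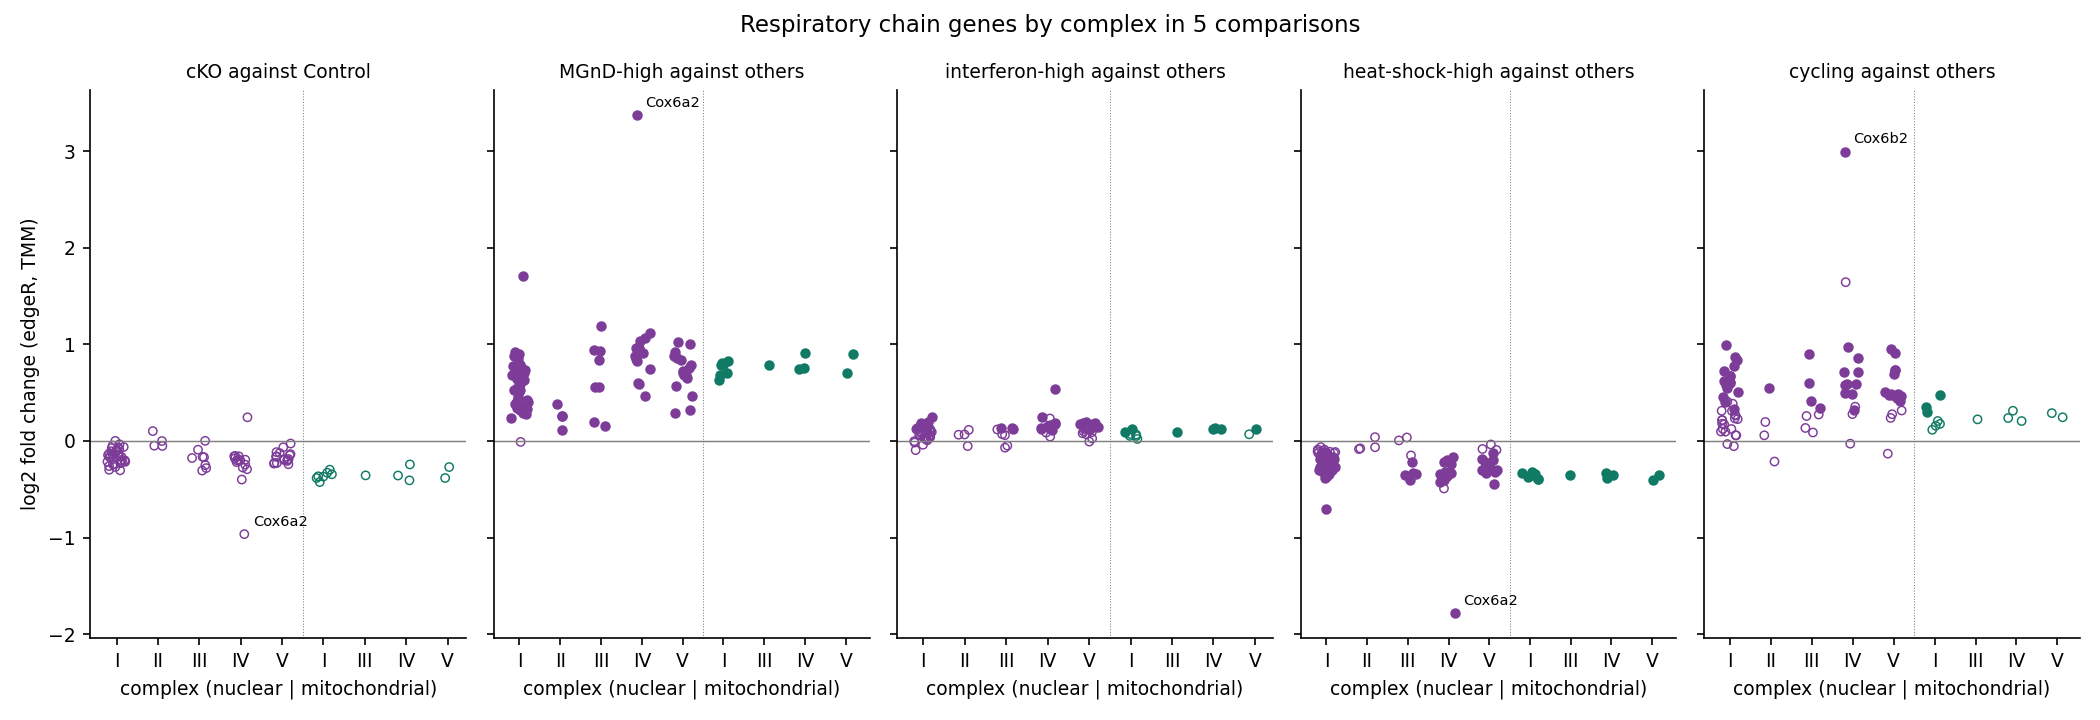
Log2 fold change of each member (points) by complex for the comparisons of MGnD-high, interferon-high, heat-shock-high and cycling cells with the other microglia-like cells and of cKO with Control. Purple points are nuclear and green points mitochondrial members, filled where the adjusted p is under 0.05 and open otherwise. The MGnD-high panel lies almost wholly above 0, heat-shock-high cells mostly below it, and no point of the genotype panel is filled.

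In complex I, 35 of 36 nuclear subunits rose in MGnD-high cells, with a median log2 fold change of 0.54 (range -0.01 to 1.71). Ndufa1, a small membrane-arm subunit encoded on the X chromosome (chrX:37187588-37191163), showed the second highest fold of all members. Its level inside and outside the state was 217.9 and 69.3 CPM in cKO replicate 1, 253.1 and 73.9 in cKO replicate 2, 228.0 and 70.0 in Control replicate 1, and 247.0 and 74.9 in Control replicate 2. The ranges were far apart in both genotypes, with a log2 fold change of 1.71 (SE 0.04, edgeR adjusted p = 1.57e-17). Ndufa2, an accessory subunit of the matrix arm, rose by 0.90. The exception was Ndufs1, which carries iron-sulfur clusters of the electron path, at -0.01.

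Transcript length moved with the size of the rise. Over all genes tested, the 789 with a longest transcript under 1000 bases had a median log2 fold change of 0.24 and the 11441 longer ones -0.04. Among nuclear members of all complexes the medians were 0.74 (37 genes) and 0.56 (41 genes). These classes were compared after the values were seen, and the part of length in the members' differences was not tested. The mitochondrial core subunits of the complex, mt-Nd1 to mt-Nd6, rose by 0.63 to 0.83. mt-Nd1, part of the ubiquinone site, rose by 0.81, mt-Nd5, of the proton-pumping arm, by 0.83, and mt-Nd6, the only protein gene on the light strand, by 0.79. mt-Nd4l overlaps mt-Nd4, and mt-Atp8 overlaps mt-Atp6, so counts of these neighbours are uncertain.

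Complex II showed the smallest rise. Its 4 subunits are the flavoprotein Sdha, the iron-sulfur protein Sdhb and the membrane anchors Sdhc and Sdhd, and all 4 passed the test upward, at 0.11, 0.39, 0.26 and 0.26, with a median of 0.26. With total UMIs as library size, which moved the median of all genes to -0.31, Sdha fell (-0.17) and Sdhb, Sdhc and Sdhd were at 0.10, -0.02 and -0.02 without passing, all above that median. Sdhb, for example, was at 99.3 inside and 83.2 CPM outside the state in cKO replicate 1 and at 100.7 and 80.6 in Control replicate 2.

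In complex III 8 of 8 nuclear subunits rose, with a median of 0.70 (0.16 to 1.2). Uqcrh, the hinge protein that assists cytochrome c binding (chr4:116066965-116075071), was at 528.5 CPM inside and 235.0 outside the state in cKO replicate 1, 504.1 and 218.1 in cKO replicate 2, 540.2 and 238.1 in Control replicate 1, and 597.5 and 255.5 in Control replicate 2. Every library in the state lay above every library outside it, with a log2 fold change of 1.196 (SE 0.035, edgeR adjusted p = 6.93e-16). Uqcr10, a small subunit, rose by 0.94. The core proteins Uqcrc1 and Uqcrc2, which face the matrix, rose by 0.16 and 0.19 and were the pair that fell under the other scaling, at -0.13 and -0.09. mt-Cytb, which holds both haem b groups and is the complex's only mitochondrial gene, rose by 0.79.

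Complex IV had the highest nuclear median, 0.90 (0.46 to 3.37), and 14 of 14 tested subunits rose. Cox8b and Cox7a1, known as muscle isoforms, were too low to test. Cox4i1, the common isoform of the subunit that binds ATP, rose by 1.07. Cox8a rose by 1.04, Cox6b1, which clamps the dimer from the intermembrane side, by 0.97, Cox7a2l, which joins complexes III and IV into supercomplexes, by 0.92, and Cox7a2 by 0.83. Ndufa4 rose least in the complex, by 0.46. Cox6b2, the testis isoform of Cox6b1, was near the detection limit at 1.35 to 3.23 CPM on both sides and rose by 0.60 (edgeR adjusted p = 0.0381). Of the mitochondrial core, mt-Co1, the catalytic subunit, rose by 0.91 and mt-Co3 by 0.76.

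Cox6a2 had the largest fold of all members in this comparison. It encodes the heart and skeletal muscle isoform of subunit 6a, a regulatory subunit of complex IV, and lies at chr7:128205435-128206387 (GRCm38, minus strand), within the span of Itgad on the opposite strand. Itgad had 1 to 4 UMIs in each of the 8 sums. The part of Itgad transcripts in the Cox6a2 count was not tested. The Cox6a2 level inside and outside the state was 146.6 and 16.7 CPM in cKO replicate 1, 137.5 and 7.46 in cKO replicate 2, 173.5 and 17.3 in Control replicate 1, and 214.4 and 23.9 in Control replicate 2. The 4 libraries agreed in direction and the lowest value in the state was several times the highest outside it. The log2 fold change was 3.37 (SE 0.09, edgeR adjusted p = 2.75e-16), and 3.09 with total UMIs as library size. Cox6a1, the isoform of other tissues (chr5:115345642-115348981), was at 248.3 and 123.2 CPM in cKO replicate 1, 288.1 and 124.9 in cKO replicate 2, 267.6 and 123.9 in Control replicate 1, and 276.5 and 123.8 in Control replicate 2. It rose by 1.12 (SE 0.04, edgeR adjusted p = 6.85e-15), so both isoforms were higher in the state and the muscle isoform more so.

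**Figure D3:**
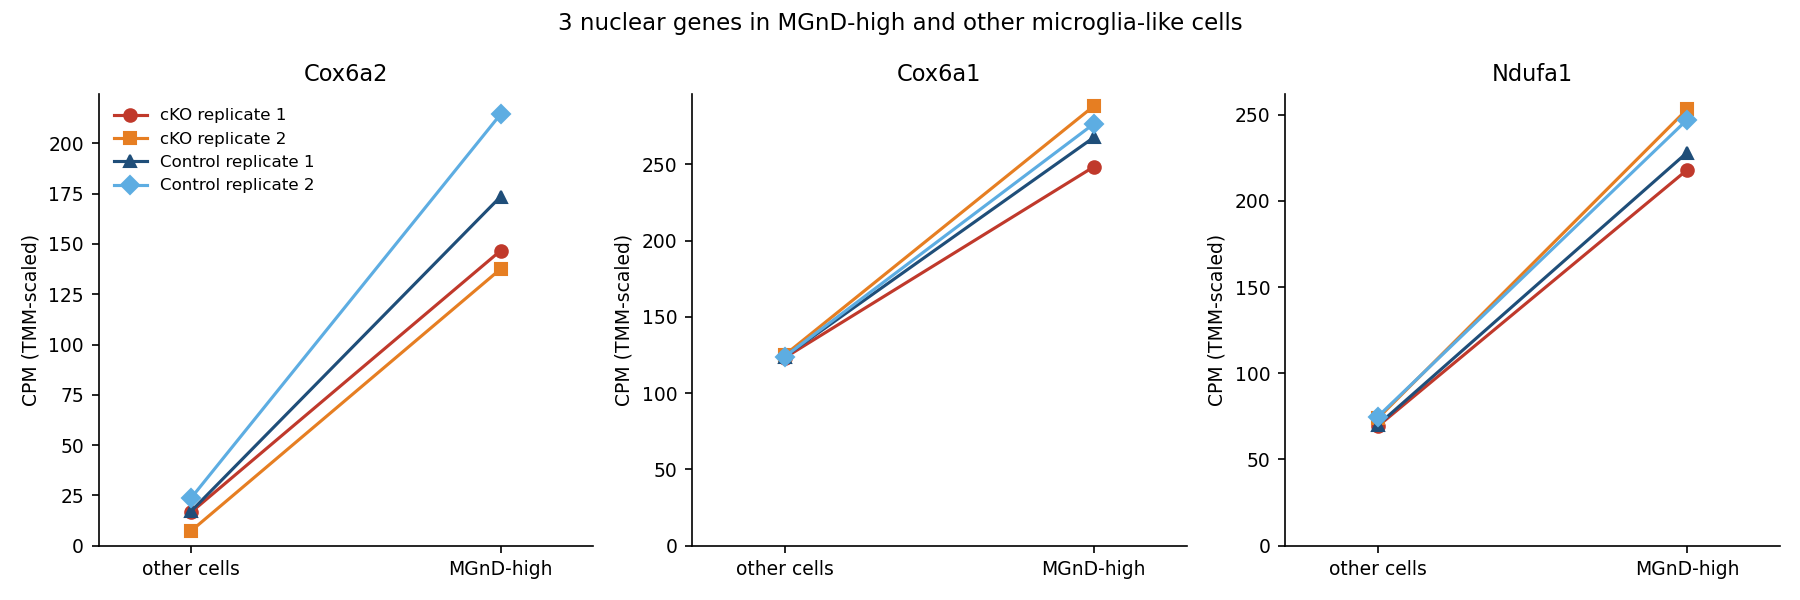
TMM-scaled CPM of Cox6a2, Cox6a1 and Ndufa1 in MGnD-high cells and in the other microglia-like cells. Lines join the pair of sums from 1 library. Cox6a2 ran from 7.46 to 23.9 CPM outside the state and from 137.5 to 214.4 inside it, a larger fold than for Cox6a1 or Ndufa1.

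Cox6a2 was detected several times more often in MGnD-high than in other cells at matched depth. After thinning to 2000 UMIs, a Cox6a2 UMI was found in 20.1% (exact 95% interval 17.3% to 23.2%) and 20.8% (16.5% to 25.6%) of MGnD-high cells of cKO replicates 1 and 2, and in 23.6% (21.0% to 26.4%) and 28.8% (25.4% to 32.4%) of those of Control replicates 1 and 2. Outside the state the shares were 2.37%, 1.66%, 2.92% and 3.38%, and in cells with none of the 12 MGnD genes 0.873%, 1.29%, 1.90% and 1.85%. Unthinned, the shares were 55.6%, 49.7%, 59.1% and 66.7% inside and 8.29%, 5.74%, 9.18% and 10.7% outside. Intervals cover counting error only. Cox6a2 made up 32.5, 13.5, 51.0 and 59.8 of each 1000000 UMIs of free RNA in the same library order, more than in the cells outside the state (18.7, 8.46, 19.2 and 25.2, unscaled). The low level outside the state was not even, since cells with 2 of the 12 MGnD genes held 49.8, 20.9, 46.6 and 59.3 CPM (unscaled) and cells with none 7.83, 6.37, 10.9 and 12.7. The part of free RNA in the detection outside the state was not tested. Of the striated muscle list, which was also higher inside the state, 6 to 8 of 11 genes were at 0 in each library, Myh4, Mb, Actc1, Myh6 and Des among them in all 4, and Ckm had 16, 3, 12 and 14 UMIs. The list summed to 38.1 to 44.0 CPM inside and 20.7 to 25.7 outside the state, most of it Tnni2 (23.6 to 32.0 CPM in all microglia-like cells), and its part in the result was not tested.

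Both genomes followed the number of MGnD genes found in a cell. From cells with none to cells with 6 or more of the 12, the mitochondrial share of UMIs went from 1.99% to 2.91% in cKO replicate 1, 1.80% to 2.78% in cKO replicate 2, 1.89% to 3.06% in Control replicate 1 and 2.40% to 3.65% in Control replicate 2. It did not rise at every step: the highest share lay at 4 genes in cKO replicates 1 and 2 (2.96% and 2.97%) and Control replicate 2 (3.81%), and at 5 genes in Control replicate 1 (3.08%). The nuclear share went from 1.02% to 1.5%, 0.995% to 1.52%, 0.998% to 1.60% and 1.005% to 1.55% in the same order. Cox6a2 went from 7.83 to 240 CPM (unscaled) in cKO replicate 1, 6.37 to 179 in cKO replicate 2, 10.9 to 225 in Control replicate 1 and 12.7 to 237 in Control replicate 2. The nuclear share differed little between libraries at either end, while the mitochondrial share of Control replicate 2 was above the others at both.

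**Figure D4:**
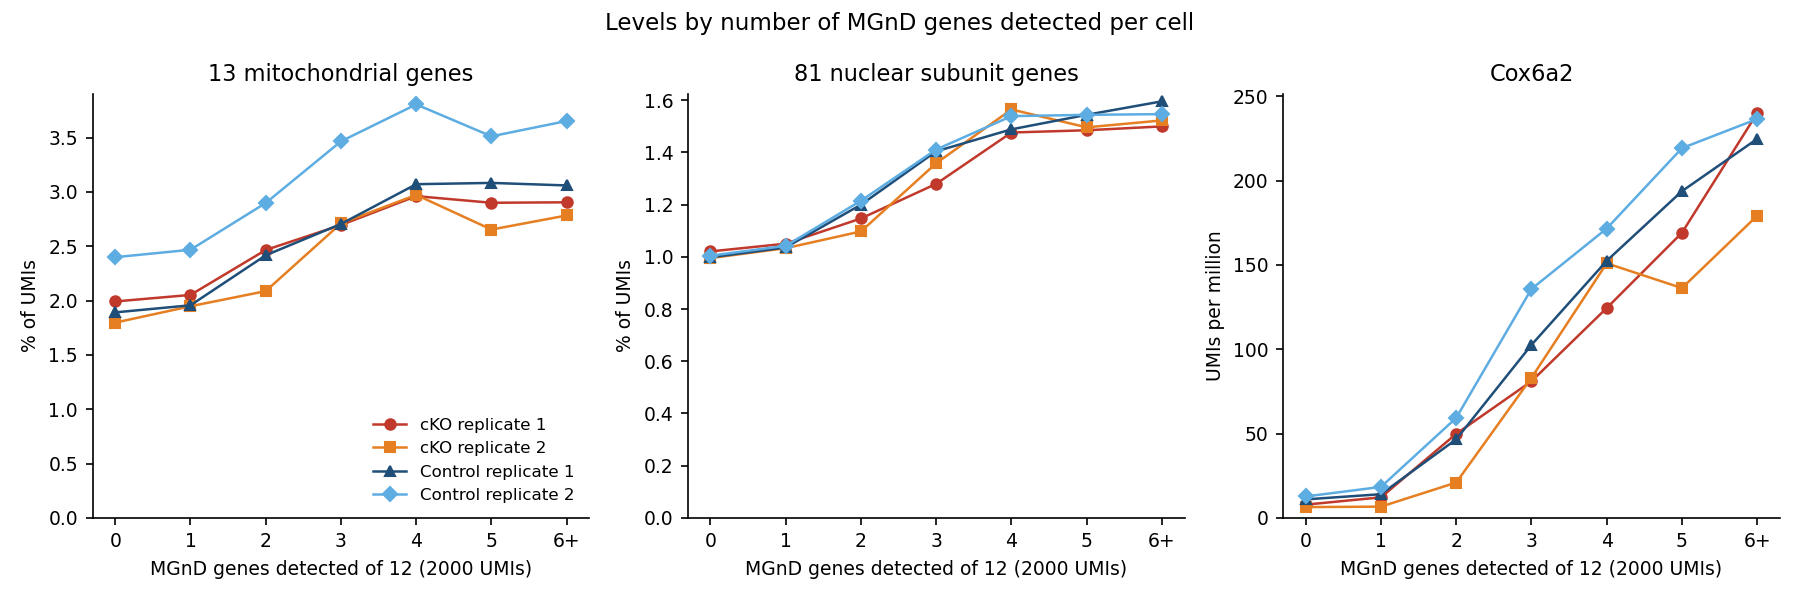
Percent of UMIs from mitochondrial genes (left) and nuclear subunit genes (middle) and unscaled CPM of Cox6a2 (right) against the number of 12 MGnD genes found in a cell after thinning to 2000 UMIs, from 0 to 6 or more. Each line is 1 library, with UMIs summed over its microglia-like cells. Cox6a2 rises from between 6.37 and 12.7 to between 179 and 240 CPM.

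In complex V 17 of 17 nuclear subunits rose, with a median of 0.73 (0.29 to 1.02). Atp5e, the epsilon subunit of the central stalk (chr2:174461072-174464105), rose by 1.00, from 223.2 to 416.8 CPM in cKO replicate 1, 242.3 to 517.0 in cKO replicate 2, 219.9 to 437.7 in Control replicate 1 and 254.3 to 516.9 in Control replicate 2. Atp5mpl, a small membrane subunit, rose by 1.02. Atp5g1, Atp5g2 and Atp5g3, which encode the same mature ring subunit c, rose by 0.68, 0.86 and 0.65. mt-Atp6, which forms the proton channel with that ring, rose by 0.90 and mt-Atp8 by 0.71. The ratio of mitochondrial to nuclear UMIs differed more between libraries than between states, at 2.02, 1.90, 1.98 and 2.41 inside the state and 2.00, 1.86, 1.92 and 2.38 outside it (cKO replicates 1 and 2, Control replicates 1 and 2).

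Genes that serve the chain without being part of it moved less uniformly in MGnD-high cells. Of the 8 Ndufaf assembly factors, Ndufaf2 (0.33), Ndufaf3 (0.17) and Ndufaf8 (0.41) rose and Ndufaf4 (-0.21) and Ndufaf7 (-0.32) fell. Of 32 further assembly factors 10 rose and 4 fell, with a median of -0.02, so that the share that rose was near the 27.9% of all genes. Cox17, the copper chaperone of complex IV, and Uqcc2, an assembly factor of complex III, each rose by 0.68, and Cox11, Uqcc1, Tmem70 and Foxred1 fell by 0.17 to 0.41. Of 21 genes of mitochondrial gene expression and biogenesis 3 rose and 11 fell, with a median of -0.20. Those that rose were Slirp (0.74), Lrpprc (0.19), its partner in stabilising mitochondrial mRNA, and the elongation factor Tufm (0.21). Those that fell included Nrf1 (-0.18), Gabpa (-0.22), Esrra (-0.24) and Yy1 (-0.20), which encode factors of the 4 promoter motifs above and were named after their values were seen, and Polg2 (-0.48) and Twnk (-0.36), which serve replication of mitochondrial DNA.

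Of 14 tricarboxylic acid cycle genes, 7 rose and 2 fell, with a median of 0.18. Suclg2, of the GTP-forming succinyl-CoA ligase, rose by 0.46, and Idh2 (-0.64), the NADP-dependent isocitrate dehydrogenase, and Dlst (-0.20) fell. Of 14 genes for carriers and the outer membrane 11 rose and none fell, with a median of 0.41, led by the phosphate carrier Slc25a3 (0.70) and the import receptor Tomm20 (0.65). With total UMIs as library size these 4 lists had 5 higher and 20 lower, 1 and 16, 2 and 6, and 8 and 5. Over all genes 14.8% rose and 58.9% fell on that scale. In that order (assembly factors, expression, cycle and carriers) the medians were -0.30, -0.48, -0.11 and 0.13, against -0.31 over all genes.

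Interferon-high cells showed a small rise of some members. The state needed 3 of 12 interferon-induced genes, and it held 314, 267, 343 and 266 cells (cKO replicates 1 and 2, Control replicates 1 and 2). Of 79 nuclear subunits 29 rose and none fell, and 7 of 13 mitochondrial genes rose. Over all genes 12.5% passed, 8.83% upward and 3.72% downward. The medians were 0.12 and 0.09, against 0.00 over all genes. By complex, 8 of 36, 0 of 4, 3 of 8, 9 of 14 and 9 of 17 nuclear subunits of complexes I to V rose.

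Cox6a2 was again the member with the largest fold. It was at 57.3 CPM inside and 49.5 outside the state in cKO replicate 1, 40.8 and 26.3 in cKO replicate 2, 94.0 and 63.5 in Control replicate 1, and 133.1 and 81.7 in Control replicate 2, and it was higher inside in 4 of 4 libraries. Its log2 fold change was 0.54 (SE 0.06, edgeR adjusted p = 1.21e-08). Ndufa1 rose by 0.25, Cox7a2 by 0.24, Ndufb9, an accessory subunit of complex I, by 0.19, Cox6a1 by 0.18 and Atp5h, of the stator stalk, by 0.18. MGnD-high cells made up 22.8% to 38.8% of interferon-high cells and 11.8% to 25.0% of the others. With MGnD-high cells left out of both sides, 3 nuclear genes (Cox6a2 at 0.62, Cox6c and Cox7a2) and 6 mitochondrial genes rose, where 608 of 11672 genes rose (5.21%) and 177 fell, so the nuclear share was near that of all genes. The scaling also weighed on the calls: with total UMIs as library size all genes gave 800 higher and 1001 lower in place of 1081 and 455, with 14 nuclear and 4 mitochondrial members higher.

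Of the Ndufaf factors, Ndufaf8 (0.19) rose and Ndufaf7 (-0.24) fell in interferon-high cells. Among the other lists 0 of 32 assembly factors, Slirp (0.29) of 21 expression genes, Suclg2 (0.24) and Idh2 (-0.27) of 14 cycle genes and Tomm70a (0.21) of 14 carrier genes passed, with medians of 0.03, -0.04, 0.02 and 0.08.

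Heat-shock-high cells had lower levels of both genomes' members. The state needed UMIs of 2 of Hspa1a, Hspa1b and Dnajb1, chaperone genes induced by stress, and it was unequal between libraries, with 14.6% and 26.0% of the cells of cKO replicates 1 and 2 and 8.72% and 6.01% of Control replicates 1 and 2. Of 79 nuclear subunits 56 fell and none rose, and 13 of 13 mitochondrial genes fell. Over all genes 14.7% passed, 5.10% upward and 9.64% downward. The medians were -0.23 and -0.36 against 0.01 over all genes. By complex, 24 of 36, 0 of 4, 5 of 8, 13 of 14 and 14 of 17 nuclear subunits fell, so complex II gave no call, with Sdhb at -0.08.

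Cox6a2 was at 14.8 CPM inside and 59.1 outside the state in cKO replicate 1, 9.59 and 36.2 in cKO replicate 2, 26.4 and 73.2 in Control replicate 1, and 28.7 and 94.3 in Control replicate 2. All values inside the state lay below all values outside it, with a log2 fold change of -1.78 (SE 0.08, edgeR adjusted p = 1.005e-19). Ndufa1 fell by 0.70, Atp5mpl by 0.44, Cox6a1 by 0.42, Uqcrh by 0.40 and mt-Atp6 by 0.40. MGnD-high cells made up 2.63% to 8.18% of heat-shock-high cells and 16.3% to 28.0% of the others. With MGnD-high cells left out of both sides, 1 nuclear gene (Cox6a2, -0.62, edgeR adjusted p = 0.0053) and 11 mitochondrial genes fell, where 165 of 11922 genes fell (1.38%) and 33 rose, and the medians were -0.06 and -0.15. With total UMIs as library size the split over all genes turned from 623 higher and 1179 lower to 1805 and 850, while 44 nuclear and 13 mitochondrial members fell.

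Among assembly factors and other mitochondrial genes, Ndufaf4 (0.22), Nrf1 (0.24) and Idh2 (0.29) rose in heat-shock-high cells, and Cox17 (-0.24), Slirp (-0.24), Suclg2 (-0.18) and Slc25a3 (-0.27) fell. The list of 32 assembly factors had 0 higher and 5 lower (median -0.04), the expression list 1 and 1 of 21 (0.12), the cycle 1 and 1 of 14 (-0.03) and the carriers 0 and 7 of 14 (-0.14).

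Cycling cells had higher levels of many nuclear members, while the count of mitochondrial ones that rose depended on the libraries and the scaling. They were few, at 48, 20, 50 and 23 cells in cKO replicates 1 and 2 and Control replicates 1 and 2, and deep, with medians of 11136 to 16200 UMIs. Of 80 nuclear subunits 45 rose and none fell. Of the mitochondrial genes mt-Nd1 (0.35), mt-Nd5 (0.30) and mt-Nd6 (0.47) rose. With total UMIs as library size 7 of 13 mitochondrial and again 45 nuclear genes rose, where 15.1% of all genes rose. No mitochondrial gene passed without cKO replicate 1, Control replicate 1 or Control replicate 2, and 4 did without cKO replicate 2. In the fits without 1 library, 11.9% to 14.9% of all genes rose. With all libraries and TMM factors, 29.4% of all genes passed, 15% upward and 14.4% downward. The medians were 0.43 and 0.24 against -0.09 over all genes, and the mitochondrial to nuclear ratio was 1.48, 1.74, 1.69 and 2.37 in the state against 2.02, 1.87, 1.95 and 2.39 outside it. After thinning to 2000 UMIs, 10 nuclear and 0 mitochondrial genes rose (5.65% of all genes rose), with medians of 0.25 and 0.06 against -0.29 over all genes.

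Cox6b2 showed the largest fold in cycling cells. This testis isoform (chr7:4751792-4753094) was at 13.1 CPM inside and 2.50 outside the state in cKO replicate 1, 21.7 and 1.59 in cKO replicate 2, 11.9 and 1.75 in Control replicate 1, and 16.1 and 1.70 in Control replicate 2. It was low everywhere but higher in the cycling sum of every library, with a log2 fold change of 3.00 (SE 0.46, edgeR adjusted p = 1.83e-09). Ndufa5, of the matrix arm of complex I, rose by 0.99, Cox6a1 by 0.98, Atp5o, of the stator stalk, by 0.95, Atp5k by 0.91, Uqcr10 by 0.90, Ndufb11 by 0.87, Cox7a2 by 0.86, Ndufa4 by 0.72 and Sdhd by 0.55. Cox6a2 was at 0.36 and did not pass (edgeR adjusted p = 0.0805). MGnD-high cells were 25.0% to 74.0% of the cycling cells, and with them left out Cox6a2 rose by 1.21, 32 nuclear and 0 mitochondrial genes rose, where 1231 of 11582 genes rose (10.6%) and 991 fell, and the medians were 0.35 and 0.34.

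Of the other lists in cycling cells, assembly factors had 2 higher and 4 lower of 32 (median -0.13), with Cox20, which inserts a core subunit of complex IV, at 0.98. The expression list had 1 higher and 3 lower of 21 (-0.13), with the transcription factor Tfb2m at -1.02. The cycle had 2 and 2 of 14 (0.16), with fumarase, Fh1, at 1.10 and Suclg1 at -0.75, and carriers 3 and 0 of 14 (0.02), with Vdac3 at 0.72 and cytochrome c, Cycs, at 0.68.

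Between genotypes no respiratory chain gene passed the test, although most members of both genomes had values below 0. This comparison asks whether microglia-like cells labelled miR-155 cKO differ from Control, with 1 sum per library, 2 libraries per group and 2 residual degrees of freedom. The p-values measure the spread between these libraries. Of 80 nuclear, 13 mitochondrial and 8 assembly factor genes tested, edgeR and DESeq2 each called 0, where edgeR called 0.0299% of all 13384 genes. At an unadjusted p under 0.05 edgeR gave 27 nuclear, 6 mitochondrial and 1 assembly factor genes and DESeq2 27, 6 and 0. All of these were lower in cKO. Over all genes and both directions, 7.65% were under it in edgeR and 650 of 13384 in DESeq2. Below 0 were 76 of 80 nuclear and 13 of 13 mitochondrial genes, against 48.2% of all genes. The medians were -0.17 and -0.36, against 0.01 over all genes. These genes are not independent of each other, so the counts describe 4 libraries.

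By complex the nuclear medians were -0.16 for I, -0.02 for II, -0.17 for III, -0.20 for IV and -0.19 for V, and the mitochondrial ones -0.37 for I, -0.36 for III and IV and -0.33 for V. Assembly factors of the Ndufaf family had a median of 0.00. Each cKO value was below each Control value for 61 of 80 nuclear and 12 of 13 mitochondrial genes, against 19.7% of all genes, and above each for Sdhd alone, against 19.8%. With total UMIs as library size, which moved the median of all genes from 0.01 to 0.09, the complex II values near 0 changed sign: Sdha, Sdhb and Sdhc, at -0.05, -0.05 and -0.00, became 0.04, 0.03 and 0.08, and Sdhd went from 0.10 to 0.19.

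Cox6a2 had the largest nuclear difference, with 51.1 CPM in cKO replicate 1, 28.2 in cKO replicate 2, 67.7 in Control replicate 1 and 88.2 in Control replicate 2. The groups did not overlap, and the log2 fold change was -0.96 (SE 0.22, edgeR adjusted p = 0.415). Cox6a1 was at 161.9 and 156.5 in cKO and at 175.2 and 180.1 in Control (log2 fold change -0.16). Uqcr11, a small subunit of complex III, was at 153.2 and 148.5 against 171.3 and 202.0 (-0.31, edgeR adjusted p = 0.562). Ndufa1 was at 111.2 and 105.2 against 123.5 and 135.8 (-0.26), and Atp5d, the delta subunit of the ATP synthase stalk, at 143.5 and 129.2 against 158.1 and 164.2 (-0.24). None of these groups overlapped, and in none did the difference pass the test.

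Of the mitochondrial genes, mt-Nd4l was at 201.7 and 181.0 CPM in cKO and 217.8 and 268.5 in Control (-0.34, edgeR adjusted p = 0.592). mt-Nd1 was at 1609 and 1390 against 1651 and 2261 (-0.38), and mt-Cytb at 2438 and 2074 against 2465 and 3310 (-0.36). In both, cKO replicate 1 and Control replicate 1 were nearly equal, and the distance came from cKO replicate 2 and Control replicate 2. mt-Co1 was at 3152 and 2872 against 3312 and 3816 (-0.24), mt-Atp6 at 3736 and 3092 against 3820 and 5086 (-0.38), and mt-Nd6 at 40.8 and 40.5 against 44.3 and 60.9 (-0.37). mt-Nd3 was the only mitochondrial gene whose groups overlapped.

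The genotype values moved when single libraries or the MGnD-high cells were left out. Without Control replicate 1, the library with almost no Xist, the nuclear and mitochondrial medians were -0.23 and -0.56 and edgeR called 4 members, namely mt-Nd3, mt-Nd4l, mt-Nd6 and Cox6a2, with 140 of 13559 genes called (1.03%). Without Control replicate 2 they were -0.12 and -0.13, with Cox6a2 as the only member among 165 of 13859 genes called (1.19%). Without cKO replicate 1 the medians were -0.23 and -0.44. Without cKO replicate 2, the library of the other run code, no member was called, at medians of -0.11 and -0.25, among 17 of 13830 genes called. Leaving 1 library in a group assumes that it varies like the rest. Leaving out MGnD-high cells gave medians of -0.07 and -0.24, no member was called, and Cox6a2 was at -0.74 (edgeR adjusted p = 0.996). With heat-shock-high cells left out they were -0.14 and -0.33, and with total UMIs as library size -0.08 and -0.27, where Cox6a2 was 1 of 67 genes called (0.501%). Cells above 10% mitochondrial UMIs had been removed, and limits of 5% and 20% gave -0.15 and -0.29, and -0.17 and -0.38.

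As shares of UMIs, the mitochondrial members averaged 2.19% ± 0.182 over the cKO libraries and 2.64% ± 0.413 over the Control libraries (SD, n = 2 per group), -0.448 points apart. The nuclear members averaged 1.13% ± 0.0377 and 1.22% ± 0.0157, -0.0865 points apart. Both had an exact two-sided permutation p of 0.333, the smallest that 2 against 2 libraries can give. Leaving out MGnD-high cells, the differences were -0.267 and -0.0167 points.

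Beside the genotype values, Hspa1a was at 216.5 and 392.6 CPM in cKO and 125.6 and 77.2 in Control, and its part in the result was not tested. Of the other lists, 0 genes were called in the 32 assembly factors, 21 expression genes, 14 cycle genes and 14 carrier genes by edgeR, with medians of 0.00, 0.05, -0.03 and -0.08. The values with the smallest unadjusted p were Tmem70, an ATP synthase assembly factor, at 0.24 and Uqcc3, an assembly factor of complex III, at -0.20.

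No member passed the test of whether its MGnD-high difference depended on genotype. In this interaction test 0 of 80 nuclear and 0 of 13 mitochondrial genes passed in edgeR or DESeq2, where edgeR called 0.00781% of all 12796 genes. At an unadjusted p under 0.05 edgeR gave 2 nuclear and 0 mitochondrial genes (4.66% of all genes) and DESeq2 0 and 0. The medians were -0.06 and -0.06 against -0.01 over all genes. Cox6a2 was at 0.28 (SE 0.18, edgeR adjusted p = 1.00), and Ndufv2, a core subunit of complex I, at -0.31 (SE 0.09, edgeR adjusted p = 0.923). Without cKO replicate 1 Cox6a2 passed at 0.95, 1 of 70 genes called, and without cKO replicate 2 mt-Nd1 (-0.20) and mt-Co1 (-0.17) passed, 2 of 82 genes called, while Cox6a2 was at -0.12, so the sign of Cox6a2's interaction rested on which cKO library was used.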

How the data were processed

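The deposited data are UMI counts of each gene in each barcode, not normalized, which the authors obtained from Cell Ranger 4.0.0 and the mm10 build, per the submitters' processing notes. Barcodes are unfiltered, and the deposited barcode and feature tables (other: names, no measurement) only label rows and columns. Whether counting used strand is not given in the sources used here.

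Barcodes with at least 1000 UMIs, 500 genes and at most 10% of mitochondrial UMIs were kept. Doublets were scored by Scrublet (scanpy 1.11.5, expected rate 0.04). Its own threshold called 1, 0, 0 and 0, so the top scores, 0.8% per 1000 cells, were taken out (117, 65, 151 and 68 in cKO replicates 1 and 2 and Control replicates 1 and 2). Cells were clustered together (2000 variable genes, 30 principal components, 15 neighbours, leidenalg 0.10.2 at resolution 1), and clusters were named from markers of microglia and of other blood and brain cells.

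Sums of raw counts per library, or per library and state, were tested over all genes with edgeR 4.0.16 in R 4.3.3 (TMM, filterByExpr, quasi-likelihood F test, two-sided, Benjamini-Hochberg at 0.05). States were called after thinning cells to 2000 UMIs, and state fits used the library as a block with 2 sums per library. DESeq2 1.42.0 was an alternative. Other alternatives were scaling, filters, state and mitochondrial limits, thinning, cells left out, a replicate block and leaving out each library. The genotype and MGnD-high fits were checked on simulated data with log2 changes of 0.5 and 1 at a single fixed spread. At 0.5 the genotype fit recovered 75 of 100 changed genes and the MGnD-high fit 98 of 100. The spread was assumed, not estimated from these libraries, and only genes averaging at least 100 UMIs per sum were changed. The recovery therefore does not measure the power of the tests on the real data. Smaller changes, such as the members' genotype medians, were not simulated.

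Named genes were Cox6a2, Cox6a1, isoform pairs, fixed mitochondrial genes and, per comparison and complex, the members with the smallest p. The members, lists and rules were chosen with earlier results of these data known. Positions are from GENCODE M21 (GRCm38). Genes that share reads with near-identical pseudogene copies are uncertain.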

Additional observations from a re-analysis of the deposited data

Results flagged for a closer look

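In cycling cells, Cox7a2l, mt-Cytb, mt-Nd4, mt-Nd4l and mt-Co2 were lower inside the state than outside in both cKO libraries and higher in both Control libraries. The differences between the groups were not tested. Only members and named mitochondrial genes were searched for this pattern, and how often it occurs over all genes was not counted. The pattern uses the sign alone, and several of the gaps in the cKO libraries were small. Values below are TMM-scaled CPM inside and outside the state, for cKO replicates 1 and 2 and then Control replicates 1 and 2. Cox7a2l, the supercomplex subunit, was at 301.1 and 337.6, 203.4 and 282.8, 448.9 and 358.9, and 418.1 and 389.1. The mean change of the cKO libraries minus that of the Control libraries was -117.5 CPM. mt-Cytb was at 2401 and 2453, 2009 and 2095, 3454 and 2470, and 4693 and 3330, and the difference between the groups was -1243 CPM. mt-Nd4, a subunit of the proton-pumping arm of complex I, was at 1668 and 1747, 1486 and 1520, 2389 and 1784, and 3128 and 2217, a difference of -814.9 CPM. mt-Nd4l, which overlaps it, was at 191.5 and 203.1, 170.8 and 182.9, 305.5 and 218.4, and 321.6 and 269.9, a difference of -81.3 CPM. mt-Co2, the complex IV subunit that takes electrons from cytochrome c, was at 2949 and 3164, 2676 and 2701, 4724 and 3184, and 5540 and 4299, a difference of -1510 CPM. The cycling sums rest on 48, 20, 50 and 23 cells, of which 31.3%, 25.0%, 74.0% and 43.5% were MGnD-high, and the part of that share was not tested.

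The same opposed directions, again not tested, were found for 3 members in other states. In MGnD-high cells Ndufaf1, a complex I assembly factor, was at 9.44 and 10.4, 9.63 and 10.6, 10.3 and 9.56, and 10.4 and 10.3 CPM, a difference of -1.42. In interferon-high cells Atp5f1, of the stator stalk, was at 206.0 and 214.7, 190.8 and 206.5, 227.8 and 216.9, and 251.8 and 240.2 CPM, a difference of -23.4. Ndufaf3, another assembly factor, was at 25.5 and 29.9, 21.1 and 27.0, 30.6 and 27.9, and 30.1 and 29.7 CPM, a difference of -6.64.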

How the results depend on the processing

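The count of genotype calls among members, 0 in the reported comparison, was 6 with no filter on low counts (mt-Nd2, mt-Nd4l, mt-Nd6, Ndufb5, Uqcr11 and Cox6a2; 346 of 19990 genes called), 1 with total UMIs as library size and 0 to 5 when 1 library was left out. The upper value of 5 came from the fit without cKO replicate 1, where the share of all genes called was also the highest of these fits. That fit leaves 1 library in the cKO group, so its count was not read as specific to the members. With the replicate number as a block the count of members was 1 (Cox6a2, -1.0, edgeR adjusted p = 0.00394, 1 of 77 genes called). With 2 pairs the replicate numbers cannot be shown to pair the samples. The adjusted p of Cox6a2 was 0.00792 with total UMIs, 0.0966 without cKO replicate 2 and 0.892 in DESeq2. The interaction count, 0, was 0 to 2 when 1 library was left out. The MGnD-high count of 91, which adds calls of both directions, stayed within 1.5 times under every alternative run. With total UMIs it held 60 nuclear and 13 mitochondrial members that rose and 4 nuclear members that fell. The interferon-high count was 36, with 12.5% of all genes called. It was 21 with no filter (8.19% of all genes), and 12 and 59 with 1 state gene more or fewer (9.62% and 15.8%). After thinning it was 13 (7.25%), without MGnD-high cells 9 (6.73%) and with total UMIs 18 (14.7%). The heat-shock-high count was 69, with 14.7% of all genes called. With 1 state gene more it was 39 (4.04%), after thinning 39 (5.66%) and without MGnD-high cells 12 (1.66%). The cycling count of 48 (29.4%) was 10 after thinning (12.7%). The cause was not tested.

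Some named genes changed sign. For genotype, without MGnD-high cells, Cox6a1 was at 0.0017 and Atp5g3 at 0.075, and with total UMIs Atp5g3 was at 0.058. Leaving out 1 library gave -1.11 to 0.024 for Cox7a1, -0.037 to 0.46 for Cox6b2 and -0.063 to 0.0090 for Atp5g3. For the MGnD-high state, Sdhd with total UMIs was at -0.023. In interferon-high cells, Cox6b2 ran from -0.053 to 0.58 without 1 library and was at -0.15 without MGnD-high cells. Ndufa4 was at -0.023 after thinning, -0.022 without MGnD-high cells and -0.011 with total UMIs, Sdhd at -0.0036 with 1 state gene fewer and -0.0037 without MGnD-high cells, and Uqcc2 at -0.035 after thinning. In heat-shock-high cells, Sdhb was at 0.033 with 1 state gene more, 0.017 without MGnD-high cells and 0.00013 with total UMIs, and Nrf1 at -0.023 with 1 state gene more. In cycling cells, Cox7a2l was at 0.011 in DESeq2, 0.063 without MGnD-high cells and -0.16 to 0.091 without 1 library. In the interaction, leaving out 1 library gave -0.12 to 0.95 for Cox6a2 and -0.12 to 0.067 for Cox6a1. Of 453 alternative values of the named genes for genotype, 436 kept their direction and side of the threshold. So did 426 of 434 for MGnD-high, 310 of 400 for interferon-high, 343 of 411 for heat-shock-high and 328 of 387 for cycling. For the interaction (Cox6a2, Cox6a1 and Ndufv2) 18 of 21 did. Part of the named genes had been picked for the smallest p in the reported comparison. Agreement is therefore partly built in, and these tallies do not cover the other members.

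Total UMIs as library size and the removal of MGnD-high, heat-shock-high or cycling cells were chosen after seeing the data, except the removal of MGnD-high cells from the genotype comparison. Without 1 library, the genotype difference of the mitochondrial share ran from -0.740 to -0.156 points and that of the nuclear share from -0.113 to -0.0598. Cox6b2, Cox7a1 and Cox8b rest on few UMIs, and cycling sums on 20 to 50 cells.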

Other observations

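Cox6a2 lies 54778 bases from Itgax, a gene of the MGnD list, on chromosome 7 (GENCODE M21). The genes within 100 kb were looked at after their values were seen. In MGnD-high cells Itgax was at 3.92, which is no test because it was used to call the state. Itgam, which encodes CD11b and lies 86944 bases from Cox6a2, was at -0.18 (edgeR adjusted p = 0.000254) and 9130023H24Rik at -0.46 (edgeR adjusted p = 0.00225). Armc5 (-0.11), Tgfb1i1 (-0.10) and BC017158 (-0.03) did not pass, and the other annotated neighbours were not among the genes tested.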
